A study of Mus musculus with 6 samples.

Results

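The genes described here are those of antigen presentation by major histocompatibility complex (MHC) class II molecules, followed in mouse neutrophils with and without the microRNA miR-223. They were chosen by identifier as 13 probe sets out of 45101 on the array. The rule names identifiers and uses no measured value, but it was set with earlier results of these data known. The 13 probe sets stand for 8 genes: Cd74 with 1 probe set, H2-Aa with 4, H2-Ab1 with 3, and H2-Eb1, H2-DMa, H2-DMb1, Ciita and Itgax with 1 each. The pairing of probe set and gene came with that choice and was not tested here, because no table linking the array's identifiers to genes was used. Messenger RNA was measured on 6 Affymetrix arrays. The miR-223 null group held 3 arrays with RNA of neutrophils grown from the bone marrow of mice lacking the microRNA, and the wild-type group held 3 arrays with RNA of neutrophils grown from wild-type marrow. Cells of both groups shared 1 regimen: marrow progenitors were grown for 6 days in SILAC medium, which carries isotope-labelled amino acids, with G-CSF, the growth factor of granulocytes, and SCF, a factor of early progenitors; SCF was then withheld for 42 hours, and live neutrophils were taken by magnetic sorting. The cells matured in a dish rather than in an animal, and the labels give neither strain nor age, nor whether replicates came from separate mice, so p-values measure only the spread between these arrays, which may be technical.

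MHC class II molecules are heterodimers of an alpha and a beta chain that display peptides from engulfed material to CD4+ T cells. The invariant chain Cd74 escorts newly made dimers to endosomes and fills their groove, H2-DM exchanges its last fragment for peptide, and Ciita is the transcriptional coactivator on which expression of these genes depends. Dendritic cells, B cells and macrophages are the usual carriers of class II. Resting neutrophils carry little, although activated ones can acquire it. Itgax encodes CD11c, an integrin subunit used as a marker of dendritic cells.

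The microRNA that the null cells lack is shown to identify the perturbation. RefSeq (GRCm38.p6) places its mature 3p strand at chrX:96242884-96242905 on the plus strand. The capitals mark the seed, bases 2 to 8, through which a microRNA chiefly recognises its targets.
mmu-miR-223-3p: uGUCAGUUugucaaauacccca

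The class II chains and Cd74, together called the chain genes below, varied together from array to array, by more than the distance between the genotype means. The deposited values are log2 intensities, so a difference of 1 is a doubling of signal. Cd74 (1425519_A_AT) read 9.15, 8.36 and 7.47 on null arrays 1, 2 and 3 and 9.88, 8.13 and 8.51 on wild-type arrays 1, 2 and 3. Wild-type 1 was highest, null 1 came next and null 3 was lowest, and the genotypes overlapped.

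H2-Aa, the alpha chain of the I-A molecule, showed the widest range. Probe set 1435290_X_AT read 8.76, 8.01 and 6.62 on null arrays 1, 2 and 3 and 9.93, 7.87 and 8.25 on wild-type arrays 1, 2 and 3. From null 3 to wild-type 1 this is a span of 3.31 log2 units, a 9.93-fold difference in signal. Again the first arrays of both genotypes were the highest. Probe set 1438858_X_AT read 7.15, 6.40 and 5.41 in null and 8.24, 6.31 and 6.56 in wild-type cells. Probe set 1452431_S_AT read 6.93, 6.37 and 5.50 in null and 7.97, 6.20 and 6.32 in wild-type cells. Both repeated the order of 1435290_X_AT at the top and at the bottom, but the 3 share a gene and are not separate evidence.

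The fourth H2-Aa probe set, 1443783_X_AT, stood clear of the floor on 1 array only. It read 3.07, 2.85 and 3.06 in null and 4.55, 2.85 and 3.02 in wild-type cells, the single high value being wild-type 1. The array's control probe sets for bacterial tryptophan genes, taken as the floor because the cells do not make these transcripts, averaged 2.77 to 2.86 over the arrays. This probe set fell below the filter on dim signals, a mean of at least 4.08 over the 6 arrays, and was the 1 member of 13 without a test there. In a fit with no filter its difference, null minus wild type, was -0.48 log2 units (limma adjusted p = 0.796).

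H2-Ab1, the beta chain that pairs with H2-Aa, followed the same pattern. Probe set 1450648_S_AT read 7.39, 6.74 and 6.08 on null arrays 1, 2 and 3 and 8.57, 6.69 and 6.93 on wild-type arrays 1, 2 and 3. Probe set 1451721_A_AT read 6.95, 6.23 and 5.77 in null and 7.89, 6.17 and 6.43 in wild-type cells, and 1425477_X_AT read 6.18, 5.65 and 5.03 in null and 6.92, 5.29 and 5.50 in wild-type cells. The high arrays were the first of each genotype in each of these probe sets, and null 3 was the low one. H2-Eb1 (1417025_AT), the beta chain of the second class II isotype, I-E, read 7.60, 6.92 and 6.30 in null and 8.56, 6.81 and 7.13 in wild-type cells. The wild-type 1 value stood apart from wild-type 2 and 3 by more than any distance between those 2 arrays and null 2.

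**Figure D1:**
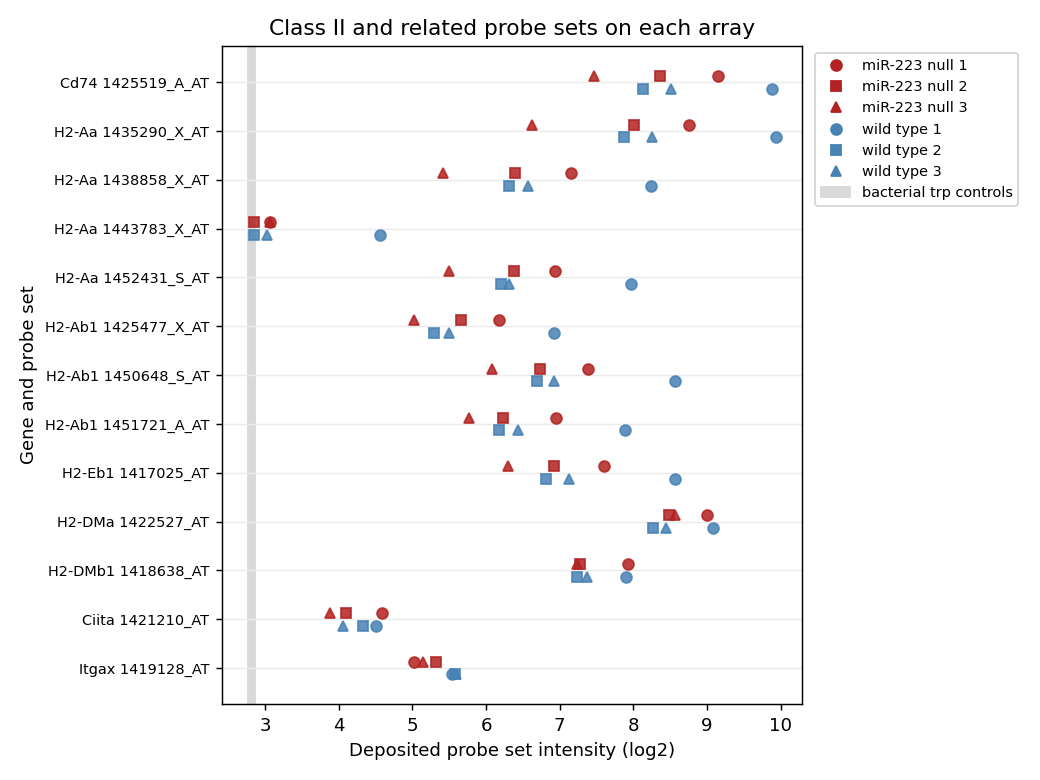
Deposited log2 intensity (x axis) of the 13 probe sets (y axis) on each array, with null arrays in red, wild-type arrays in blue, the marker shape giving the replicate number and the grey band giving the bacterial tryptophan controls. In the Cd74, H2-Aa, H2-Ab1 and H2-Eb1 rows wild-type 1 is farthest right, and null 3 is farthest left in each of them but 1443783_X_AT, while in the Itgax row the 3 null arrays lie to the left of the 3 wild-type arrays.

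Across the 9 probe sets of Cd74, H2-Aa, H2-Ab1 and H2-Eb1, wild-type 1 was highest in 9, null 1 second in 9 and null 3 lowest in 8. The full order of wild-type 1, then null 1, with null 3 last held in the 8 that passed the filter, and in 4.29% of all 27022 probe sets kept. Relative to the mean of replicates 2 and 3 of the same genotype, replicate 1 was higher by 0.84 to 1.44 log2 units in null cells and by 1.53 to 1.87 in wild-type cells over these 8. Of all kept probe sets, 4.41% had such an excess of at least 0.5 log2 units in null cells and 2.82% in wild-type cells. The chain probe sets that passed the filter did so in 8 of 8 for each genotype. Within the null group, null 3 differed from null 2 by -0.46 to -1.38 log2 units, whereas wild-type 3 exceeded wild-type 2 by 0.12 to 0.39. The high class II signal thus went with replicate number 1 and the low signal with a single null array.

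The spread within a genotype was wide relative to the other probe sets. The pooled within-group SD of the 8 probe sets lay between 0.75 and 1.09 log2 units, against a median of 0.154 over all kept probe sets and a 99th percentile of 0.581. Each of the 8 ranked between the 99.6th and the 99.9th percentile. H2-DMa and H2-DMb1 had SDs of 0.36 and 0.37, smaller than those of the chain genes but still at percentiles 93.2 and 93.7. Ciita had 0.30, at the 87.8th percentile, but its signal was dim and can be compressed towards the floor. Itgax had 0.11, at the 27.7th percentile.

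**Figure D2:**
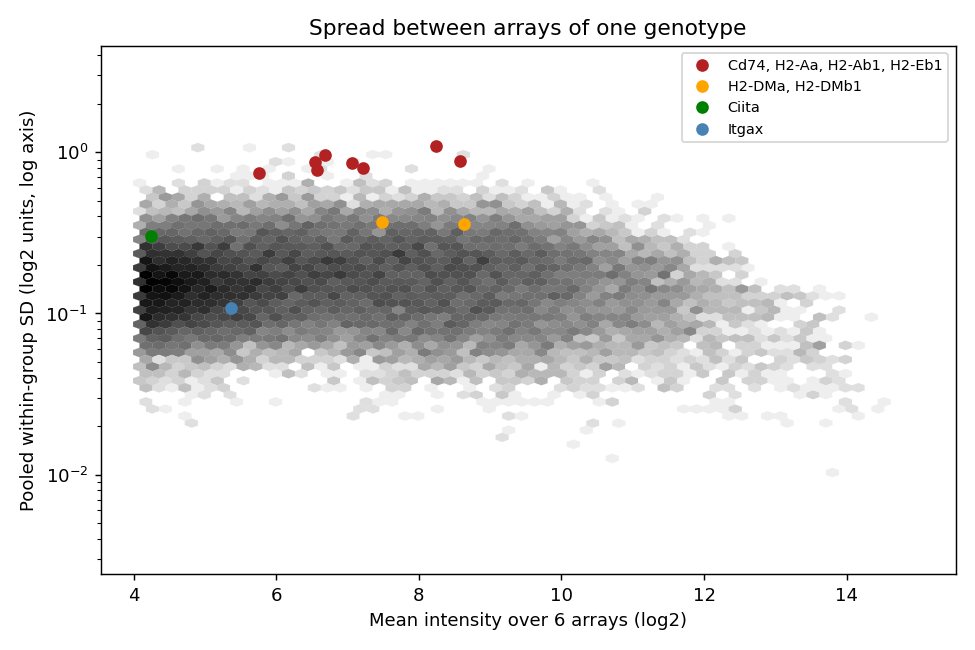
Pooled within-group SD in log2 units (y axis, log scale) against mean log2 intensity over 6 arrays (x axis), with all 27022 kept probe sets as grey hexagons, darker where more lie, and 12 members as coloured points. The Cd74, H2-Aa, H2-Ab1 and H2-Eb1 points, at 0.75 to 1.09, lie along the upper edge of the cloud and Itgax lies in its lower part.

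The sequences upstream of 3 of these genes are shown because the genes are regulated through a shared promoter module, in which an X box bound by RFX lies just upstream of a Y box bound by NF-Y, and Ciita is recruited to both. RefSeq promoter windows (GRCm38.p6, 250 bases before to 50 after the start site) were searched for 5 of the 8 genes. Cd74 lies on a chromosome that was left out of this search, and H2-Ab1 and Ciita had no window. The searched letters were AG followed after 2 free bases by ACNGATG for the X box and GATTGG for the Y box, on both strands. TGACGTCA, the cyclic AMP response element, was added after the sequence of H2-Aa had been read. Capitals mark the matches, and each run goes 5′ to 3′ on the strand of its gene.
H2-Eb1, chr17:34305763-34305824, plus strand: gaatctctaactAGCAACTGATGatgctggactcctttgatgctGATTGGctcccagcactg
H2-DMb1, chr17:34153084-34153146, plus strand: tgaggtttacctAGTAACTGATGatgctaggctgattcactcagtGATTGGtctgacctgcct
H2-Aa, chr17:34287855-34287909, minus strand: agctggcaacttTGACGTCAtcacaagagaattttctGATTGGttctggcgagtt

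In H2-Eb1 and H2-DMb1 the X box letters ended 21 and 22 bases before the Y box letters, at near-equal distance from the start site. Of all 32851 promoter windows, 0.968% held the X box letters, 16.1% the Y box letters and 0.149% both. The H2-Aa window held no match to the X box letters. It held the Y box letters and, 17 bases before them, TGACGTCA, which occurred in 1.79% of windows and did not overlap them. TGACGTCA was searched for because it had been read in this window, so its match there was fixed in advance. Its share is therefore no measure of how unusual the match is. H2-Eb1 held a second Y box match on the opposite strand. Of the 2 windows of H2-DMa, 1 held the Y box letters alone and 1 held no match, and the Itgax window held no match. These matches describe sequence and were not tested as binding sites.

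Neither fit called a difference between genotypes at any of the chain genes. Differences are null minus wild type, tested with limma over all 27022 kept probe sets at a Benjamini-Hochberg adjusted p under 0.05. Without covariates 0 of 12 members passed, where 0.189% of all probe sets did, and 1 member had an unadjusted limma p under 0.05, against 10.7% of all probe sets. With the replicate number as a block 0 of 12 passed against 10.0% of all, while 8 of 12 had an unadjusted limma p under 0.05, against 26.2% of all. The 8 were 7 probe sets of Cd74, H2-Aa, H2-Ab1 and H2-Eb1, and Itgax. This count rested on single pairs: it was 2 of 12 without the replicate 1 pair (23.8% of all), 9 without replicate 2 (17.3%) and 2 without replicate 3 (23.8%). The mean difference was below 0 in 11 of 12 members and in 52.5% of all kept probe sets, with medians of -0.52 and -0.01 log2 units. As the members of 1 gene share a transcript and the chain genes moved together, these counts are not counts of independent events.

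The differences of the chain genes were up to 0.89 log2 units in size, with standard errors of 0.46 to 0.66. H2-Aa 1435290_X_AT had a null mean of 7.80 ± 1.08 (SD, n = 3) and a wild-type mean of 8.68 ± 1.10 (SD, n = 3). The difference was -0.89 log2 units (SE 0.66, 95% interval -2.42 to 0.64, limma adjusted p = 0.707), and with the block its interval narrowed to -1.54 to -0.23 (limma adjusted p = 0.0908). Cd74 averaged 8.32 ± 0.84 (SD, n = 3) and 8.84 ± 0.92 (SD, n = 3), a difference of -0.52 (95% interval -1.76 to 0.72, limma adjusted p = 0.805, and 0.159 with the block). H2-Eb1 differed by -0.56 (95% interval -1.70 to 0.58, limma adjusted p = 0.764, and 0.108 with the block). The 3 probe sets of H2-Ab1 differed by -0.28, -0.66 and -0.51, and those of H2-Aa besides 1435290_X_AT by -0.72 and -0.56. Their limma adjusted p ran from 0.727 to 0.895 without and from 0.0851 to 0.431 with the block. Without the block, the intervals of 1435290_X_AT and 1438858_X_AT thus reach from above 0 to below -2 log2 units.

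**Figure D3:**
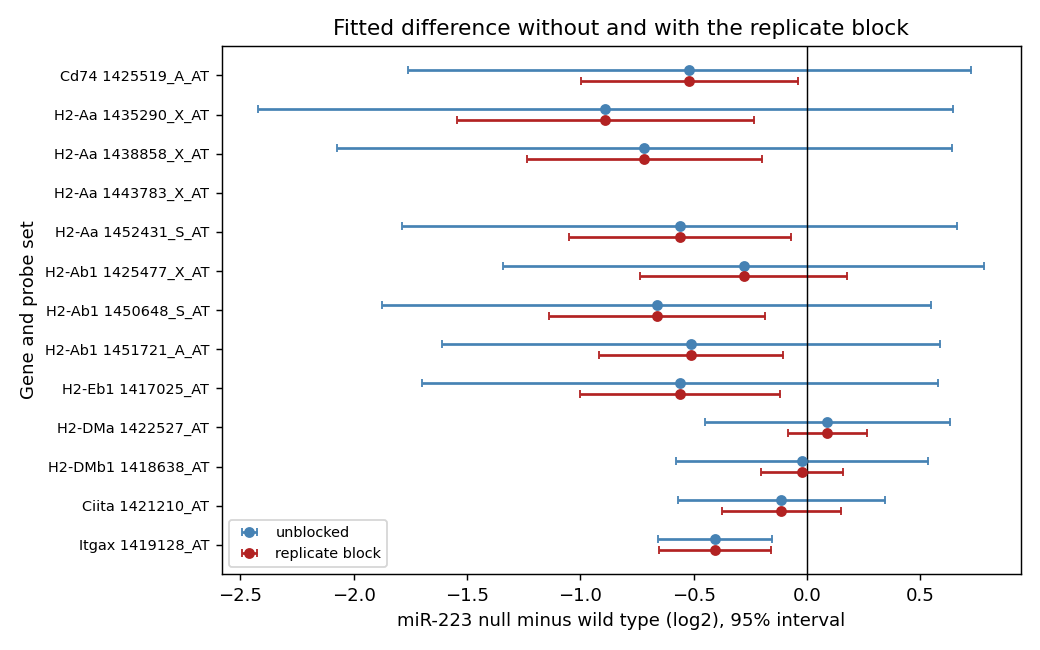
Fitted null minus wild-type difference in log2 units (x axis) with its 95% interval for each probe set (y axis), without covariates in blue and with the replicate block in red; 1443783_X_AT lay under the filter and has no fit. The blue intervals of Cd74, H2-Aa, H2-Ab1 and H2-Eb1 span 0, the red ones are narrower, and Itgax has nearly the same interval in both.

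Comparing arrays of the same replicate number showed that the sign depended on the pair. Over the 8 tested chain probe sets null minus wild type was -0.74 to -1.18 log2 units in replicate 1, 0.04 to 0.37 in replicate 2 and -0.47 to -1.63 in replicate 3. The signs were negative, positive and negative in each of the 8, and in 7.77% of all kept probe sets. The signs rest on which arrays are paired: null 2 lay above wild-type 2 in 8 of the 8 but below wild-type 3 in 6, while null 3 lay below wild-type 2 in 8. For H2-Aa 1435290_X_AT the 3 differences were -1.18, 0.14 and -1.63, and for Cd74 they were -0.74, 0.22 and -1.04. Without the replicate 2 pair, the blocked fit called 7 of 12 members, each lower in null cells, against 0.818% of all probe sets that were lower and called in that fit. They were Cd74 at -0.89 log2 units (limma adjusted p = 0.0084), H2-Eb1 at -0.90 (limma adjusted p = 0.0117), 3 probe sets of H2-Aa at -1.40, -1.12 and -0.93 and 2 of H2-Ab1 at -1.02 and -0.80. The fit without replicate 2 left out the only pair with positive differences at these probe sets. With few arrays left, its p-values lean on variance estimates shared across probe sets. Without the replicate 1 pair the blocked differences of these 7 ran from -0.30 to -0.74, and without the replicate 3 pair from -0.26 to -0.57, with no call in either fit.

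**Figure D4:**
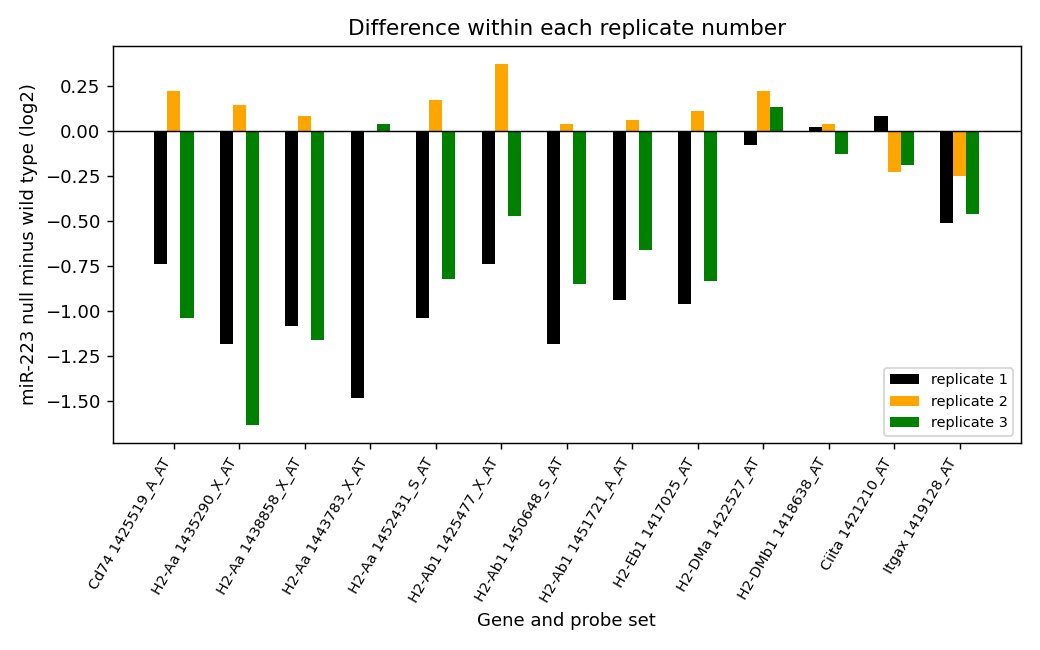
Null minus wild-type difference in log2 units (y axis) between the arrays of replicate number 1 (black), 2 (orange) and 3 (green) for each probe set (x axis). The Cd74, H2-Aa, H2-Ab1 and H2-Eb1 bars, apart from 1443783_X_AT, point down in replicates 1 and 3 and slightly up in replicate 2, while those of Itgax point down in each, from -0.25 to -0.51.

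The size of the unblocked differences depended on which single array was left out. Without wild-type 1 the difference shrank from -0.52 to 0.00 for Cd74, from -0.56 to -0.03 for H2-Eb1 and from -0.89 to -0.26 for H2-Aa 1435290_X_AT, and it was 0.23 for H2-Ab1 1425477_X_AT. Without null 3 the values were -0.09 for Cd74, -0.24 for H2-Eb1, -0.30 for H2-Aa 1435290_X_AT and 0.02 for H2-Ab1 1425477_X_AT. Without null 1, wild-type 2 or wild-type 3 the differences of these 4 probe sets were larger in size, from -0.48 to -1.37. Without null 2 they changed little, to -0.54 for Cd74, -0.55 for H2-Eb1, -0.99 for H2-Aa 1435290_X_AT and -0.30 for H2-Ab1 1425477_X_AT. Without both replicate 1 arrays they were -0.41 for Cd74, -0.36 for H2-Eb1, -0.74 for H2-Aa 1435290_X_AT and -0.05 for H2-Ab1 1425477_X_AT.

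Both H2-DM genes were highest on the replicate 1 arrays and lower on the other 4. H2-DMa (1422527_AT), the alpha chain of the peptide exchange factor, read 9.0, 8.49 and 8.57 in null and 9.08, 8.27 and 8.44 in wild-type cells. Replicate 1 was again the highest of each genotype, by 0.47 and 0.73 log2 units over the mean of the others, whereas null 3 exceeded null 2. H2-DMb1 (1418638_AT), the beta chain, read 7.92, 7.28 and 7.23 in null and 7.90, 7.24 and 7.37 in wild-type cells, null 3 being the lowest by a narrow margin. Its replicate 1 arrays lay 0.67 and 0.60 log2 units over the mean of the others. Differences between genotypes were 0.09 for H2-DMa (SE 0.23, 95% interval -0.45 to 0.63, limma adjusted p = 0.940) and -0.02 for H2-DMb1 (SE 0.24, 95% interval -0.58 to 0.53, limma adjusted p = 0.988). With the block the intervals were -0.09 to 0.26 and -0.20 to 0.16. Both genes changed sign when single arrays were left out.

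Ciita was measured near the lower end of the kept signals. Probe set 1421210_AT read 4.59, 4.09 and 3.88 in null and 4.50, 4.33 and 4.06 in wild-type cells. Replicate 1 was the highest of each genotype, and null 3 was the lowest array, but the whole span was 0.71 log2 units. The difference was -0.11 (SE 0.20, 95% interval -0.57 to 0.34, limma adjusted p = 0.903), and it was 0.04 without null 3. Differences in so dim a probe set can be compressed towards the floor, so its span cannot be set against that of the chain genes.

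Itgax was the only member whose genotypes did not overlap, a property shared by 16.8% of all kept probe sets. Probe set 1419128_AT read 5.03, 5.32 and 5.14 on null arrays 1, 2 and 3 and 5.54, 5.58 and 5.60 on wild-type arrays 1, 2 and 3. The wild-type values lay within 0.06 log2 units of each other, and each null value was below them. The means were 5.16 ± 0.15 (SD, n = 3) and 5.57 ± 0.03 (SD, n = 3). Null cells were lower by 0.51, 0.25 and 0.46 log2 units in replicates 1, 2 and 3, and 25.0% of all kept probe sets were lower in 3 of 3 pairs. The difference of -0.41 log2 units (SE 0.11, 95% interval -0.66 to -0.16) did not pass, with a limma adjusted p of 0.237 without and 0.053 with the block. An exact permutation test (two-sided) gave p = 0.1, the lowest value open to 3 against 3 arrays. The difference was between -0.34 and -0.49 when single arrays or pairs were left out.

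Itgax did not share the pattern of the chain genes. Its highest array was wild-type 3 and its lowest null 1, an array on which the chain genes were second highest. Bulk RNA of a culture was measured, so fewer cells of a type and less RNA per cell cannot be told apart. Further markers of dendritic cells, B cells, macrophages and neutrophils were not analysed here, because no probe set was paired with them, and the part of other cells in the class II signal was not tested.

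Of 3 technical controls, 2 were highest on the replicate 1 arrays. Spiked poly-A transcripts, averaged over 24 probe sets, read 8.92 on null 1 and 8.77 on wild-type 1, and 8.16 to 8.58 on the other 4 arrays. As a measure of RNA integrity, the 3′ probe set of beta-actin exceeded its 5′ probe set by 0.277 and 0.255 log2 units on these arrays and by 0.152 to 0.206 on the others. The bacterial tryptophan controls did not set these arrays apart, with 2.77 on null 1 and 2.86 on wild-type 1. For poly-A and actin null 3, the array lowest in class II, read 8.58 and 0.206, the highest of the 4 others in both. The part of these differences in the class II values was not tested, and the labels do not say what a replicate number stands for.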

How the data were processed

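The authors deposited log2 intensity values, 1 per probe set and array. Per the submitters' processing notes GCOS was used. How background, normalization and probe summary were handled is not given in the sources used here. The log base was read from the range of the values, and array medians lay between 4.71 and 4.72, so the values were used as deposited. After setting aside 64 control probe sets, 27022 of 45037 with a mean at or above the 40th percentile were compared between genotypes by lmFit and eBayes with trend (limma 3.58.1, R 4.3.3), two-sided, with Benjamini-Hochberg adjustment over the whole table. The code was tested on simulated data. Exact permutation tests used scipy 1.17.1.

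Groups and replicate numbers came from sample titles. Deviations from group means correlated between same-numbered arrays at r = 0.70, 0.30 and 0.48, each over 0.1, so arrays were treated as pairs by number, a pairing that comes from the data. Across numbers, r was 0.41 for null 3 against wild-type 2, and 0.21 for null 2 against wild-type 3. Both are also over 0.1, so that threshold does not select the pairing of replicates 2 and 3. The correlations set replicate 1 apart and barely separate replicates 2 and 3.

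The members and lists were chosen with earlier results of these data known. Named genes were to be the 13 members, genes of further pathway and cell type lists that passed, and the 5 genes most alike in pattern; only the first part was run, because no table paired probe sets with genes. In Affymetrix naming, x and s suffixes mark probe sets whose probes can match several transcripts, which applies to H2-Aa and H2-Ab1.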

Additional observations from a re-analysis of the deposited data

How the results depend on the processing

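The count of members past the threshold was 0 in the unblocked fit and 0 with no filter, with the filter at the 60th percentile (10 members tested, without Ciita and Itgax), after quantile normalization, after median centring, without the intensity trend and without both replicate 1 arrays, a setting chosen after seeing the data. It was also 0 in each unblocked fit that left out 1 array. In the blocked fits it was 0, except for 7 in the replicate block without replicate 2. At an unadjusted limma p under 0.05, 1 member passed in each unblocked fit but that at the 60th percentile, where 0 did, and 8 with the replicate block (6 without the trend, and 2, 9 and 2 without replicates 1, 2 and 3). Over all probe sets, 51 passed without and 2703 with the replicate block. Leaving out 1 array gave 0 to 58, leaving out 1 pair from the blocked fit gave 606 (replicate 2), 2045 (replicate 1) and 2319 (replicate 3), and the block without the trend gave 191, with no filter (chosen after seeing the data) 2455, after quantile normalization 2562 and after centring 2546. Without both replicate 1 arrays 1072 passed.

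Signs turned only where arrays or pairs were left out, and not in every member. The difference stayed below 0 in each setting for H2-Aa 1435290_X_AT and 1438858_X_AT, H2-Ab1 1450648_S_AT, H2-Eb1 and Itgax. The values nearest to 0 were -0.26, -0.12, -0.08, -0.03 and -0.34 in that order. Leaving out 1 array in turn, the lowest and highest differences were -0.93 and 0.00 for Cd74, -0.89 and 0.01 for H2-Aa 1452431_S_AT, -0.59 and 0.23 for H2-Ab1 1425477_X_AT, -0.84 and 0.02 for H2-Ab1 1451721_A_AT, -0.07 and 0.33 for H2-DMa, -0.25 and 0.18 for H2-DMb1 (0.03 with the replicate block without replicate 3), and -0.31 and 0.04 for Ciita. The cause was not tested. The block changed no call of a member. Signal near the floor limits 1443783_X_AT, dim signal above the floor limits Ciita, and the number of arrays limits the precision.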
